A study of Rattus norvegicus with 12 samples.

Results

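Complement and coagulation genes were examined in the liver of obese Zucker rats fed a control diet or a diet with 5% PSC, the labels' name for a supplement grown biotechnologically, in a study whose title names an oyster mushroom. The group was a list of 53 gene symbols, 29 of complement and 24 of coagulation and fibrinolysis. A gene was taken as measured where the platform annotation gave a row of the value table exactly its symbol and no other, which held for 49 of the 53 members, among 18166 genes in all. These were 25 complement and 24 coagulation genes, each with 1 row. C2, Cfi, Cd59 and C5ar1 were not analysed here. No filter on low values was applied.

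The rats were male, homozygous (fa/fa) obese Zucker animals (Crl:ZUC-Leprfa), 5 to 6 weeks old at the start, and no lean animals were profiled. The 6 control rats ate an unsupplemented diet and the 6 PSC rats a diet with 5% PSC of comparable gross energy and crude nutrients. Each diet was fed to 12 rats for 4 weeks, livers were taken on day 29, and 6 livers per diet were drawn at random for profiling. Rats were housed 2 to a cage, and which profiled rats were cage mates is unknown here. Signals are log2 values from Affymetrix Rat Gene 2.0 ST arrays, 1 rat per array.

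Complement and coagulation are cascades of blood proteins in which one protease cuts and activates the next, and the liver makes most of these proteins. In the classical pathway C1q recognises its target and switches on the proteases C1r and C1s. The lectin pathway uses mannose-binding lectins and MASP proteases, and the alternative pathway uses factor B, factor D and properdin. All 3 pathways converge on C3 and then on the pore built from C5 to C9. Clotting starts when tissue factor meets factor VII and ends with thrombin, which turns fibrinogen into fibrin, and plasmin later dissolves the clot. C1q and properdin come mainly from macrophages and other leukocytes, and tissue factor pathway inhibitor and thrombomodulin from endothelium, whereas hepatocytes make most of the other members.

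Promoters of members that shared a pattern over the arrays were read from RefSeq (assembly GRCr8), as 250 bases before to 50 after the start site. The table held 38 of the 49 measured members, and C1s was not among them. The C1r promoter (chr4:159098763-159099062, plus strand) is shown because C1r lies beside C1s, the member that passed the test. Promoters of C1qa (chr5:154419884-154420183, minus strand) and C1qb (chr5:154407778-154408077, minus strand), subunits of one protein, are shown because these genes varied together over the arrays. Those of Fga (chr2:170671919-170672218, plus strand), Fgb (chr2:170700826-170701125, minus strand) and Fgg (chr2:170652833-170653132, plus strand) belong to the 3 chains of fibrinogen, whose means differed by 0.03 or less in size between the diets. Capitals mark matches, on either strand, to the letters TTCNNNGAA (STAT factors), TTGCNNAA (C/EBP factors), GTTAAT (a half-site of HNF1), GGAAGT (ETS factors such as PU.1) or TATAAA, the core promoter motif of that name.
C1r: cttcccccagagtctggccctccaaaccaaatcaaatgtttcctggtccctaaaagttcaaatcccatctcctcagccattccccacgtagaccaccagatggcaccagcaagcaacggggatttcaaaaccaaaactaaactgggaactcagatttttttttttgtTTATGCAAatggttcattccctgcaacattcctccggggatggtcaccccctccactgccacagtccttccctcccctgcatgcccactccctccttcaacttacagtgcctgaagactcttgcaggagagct
C1qa: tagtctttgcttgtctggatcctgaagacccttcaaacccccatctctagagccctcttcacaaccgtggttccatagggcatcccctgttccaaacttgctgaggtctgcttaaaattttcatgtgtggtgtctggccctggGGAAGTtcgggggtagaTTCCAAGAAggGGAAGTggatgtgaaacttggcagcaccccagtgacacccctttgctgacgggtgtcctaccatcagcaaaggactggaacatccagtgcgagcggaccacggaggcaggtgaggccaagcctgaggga
C1qb: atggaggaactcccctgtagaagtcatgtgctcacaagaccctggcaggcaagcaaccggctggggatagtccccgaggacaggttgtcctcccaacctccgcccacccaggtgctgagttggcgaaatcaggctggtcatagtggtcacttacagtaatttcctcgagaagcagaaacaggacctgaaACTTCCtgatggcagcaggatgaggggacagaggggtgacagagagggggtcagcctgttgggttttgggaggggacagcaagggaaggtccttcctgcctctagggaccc
Fga: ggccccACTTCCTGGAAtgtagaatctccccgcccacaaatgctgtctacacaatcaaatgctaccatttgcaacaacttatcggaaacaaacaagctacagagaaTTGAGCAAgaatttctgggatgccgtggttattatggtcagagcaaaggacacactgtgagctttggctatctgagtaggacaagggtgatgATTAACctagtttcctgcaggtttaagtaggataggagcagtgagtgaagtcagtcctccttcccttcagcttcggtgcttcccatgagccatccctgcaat
Fgb: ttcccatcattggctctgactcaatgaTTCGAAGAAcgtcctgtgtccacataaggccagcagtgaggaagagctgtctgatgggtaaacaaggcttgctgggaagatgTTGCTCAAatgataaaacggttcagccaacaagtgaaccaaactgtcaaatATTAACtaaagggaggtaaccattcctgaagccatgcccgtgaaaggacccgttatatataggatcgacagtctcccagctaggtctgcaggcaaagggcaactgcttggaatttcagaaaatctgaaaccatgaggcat
Fgg: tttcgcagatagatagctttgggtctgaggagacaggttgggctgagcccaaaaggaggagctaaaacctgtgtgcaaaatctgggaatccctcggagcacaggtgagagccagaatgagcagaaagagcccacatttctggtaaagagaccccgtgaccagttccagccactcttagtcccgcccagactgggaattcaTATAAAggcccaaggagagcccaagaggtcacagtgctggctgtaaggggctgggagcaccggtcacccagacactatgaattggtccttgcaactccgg

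The C1r window held a C/EBP match. C1qa held a STAT match and 2 ETS matches, and C1qb an ETS match. Fga and Fgb each held a STAT, a C/EBP and an HNF1 match, and Fga an ETS match that overlaps its STAT match. The table lists a further Fga start slightly downstream, whose window (chr2:170671937-170672236) holds the C/EBP and HNF1 matches but not the STAT and ETS ones. Fgg held a TATA match. Over the 38 members with a promoter in the table, 13 had a C/EBP match (34.2%, against 10.6% of 33469 promoters of the same length), 12 an HNF1 match (31.6% against 7.45%), 8 a STAT match (21.1% against 8.87%), 7 an ETS match (18.4% against 22.6%) and 2 a TATA match (5.26% against 14.2%). A member was counted once if any of its listed promoters held the letters, whereas all listed promoters were counted singly. A match is a run of letters and not a bound site, and base composition, which differs between promoters, was not taken into account.

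The arrays had median log2 signals of 4.71 to 4.85 and correlated with one another at 0.987 to 0.995 over genes. Hepatocyte markers were bright on every array, at 9.7 or above for each of 13 measured, with Alb (albumin) at 13.16 ± 0.01 in controls and 13.16 ± 0.04 in PSC rats (mean log2 signal ± SD, n = 6). Their summed linear signal was 44616 to 46723 in controls and 45342 to 50279 in PSC rats, above every control on 5 of 6 PSC arrays, and 10 of the 13 had positive values. Of the fixed marker lists, 1 of 18 macrophage markers (Cd163) and 1 of 13 lymphocyte markers (Nkg7) rose, and 5 of 14 stellate cell markers (Dcn, Rgs5, Col1a2, Col3a1 and Tagln) fell. No marker passed among 13 hepatocyte, 12 endothelial, 11 neutrophil, 8 platelet or 5 red cell genes. In whole liver, fewer cells of a type and less RNA per cell cannot be told apart. The number of arrays limits the precision.

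Only C1s passed the test over all genes. It fell 1.38-fold in PSC-fed rats, and 48 of the 49 measured members did not pass (limma, Benjamini-Hochberg adjusted p below 0.05). That is 1 of 25 complement and 0 of 24 coagulation genes, where 2.6% of all genes tested were called (473 of 18166, with 130 or 0.716% higher and 343 or 1.89% lower), so the share among members, 2.04%, was close to that of all genes. Centring each array on its median gave 82 higher and 584 lower over all genes, and 0 higher and 4 lower in complement. At an unadjusted p below 0.05, 17 of 25 complement genes passed (68%, 7 higher and 10 lower) and 4 of 24 coagulation genes (16.7%, 1 higher and 3 lower), where 19.1% of all genes did (9.02% higher and 10.1% lower). Diets without overlap were seen for C1r, C8g and C9 in complement and F12 in coagulation, 4 of 49 members (8.16%), where 2.19% of all genes had none.

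**Figure D1:**
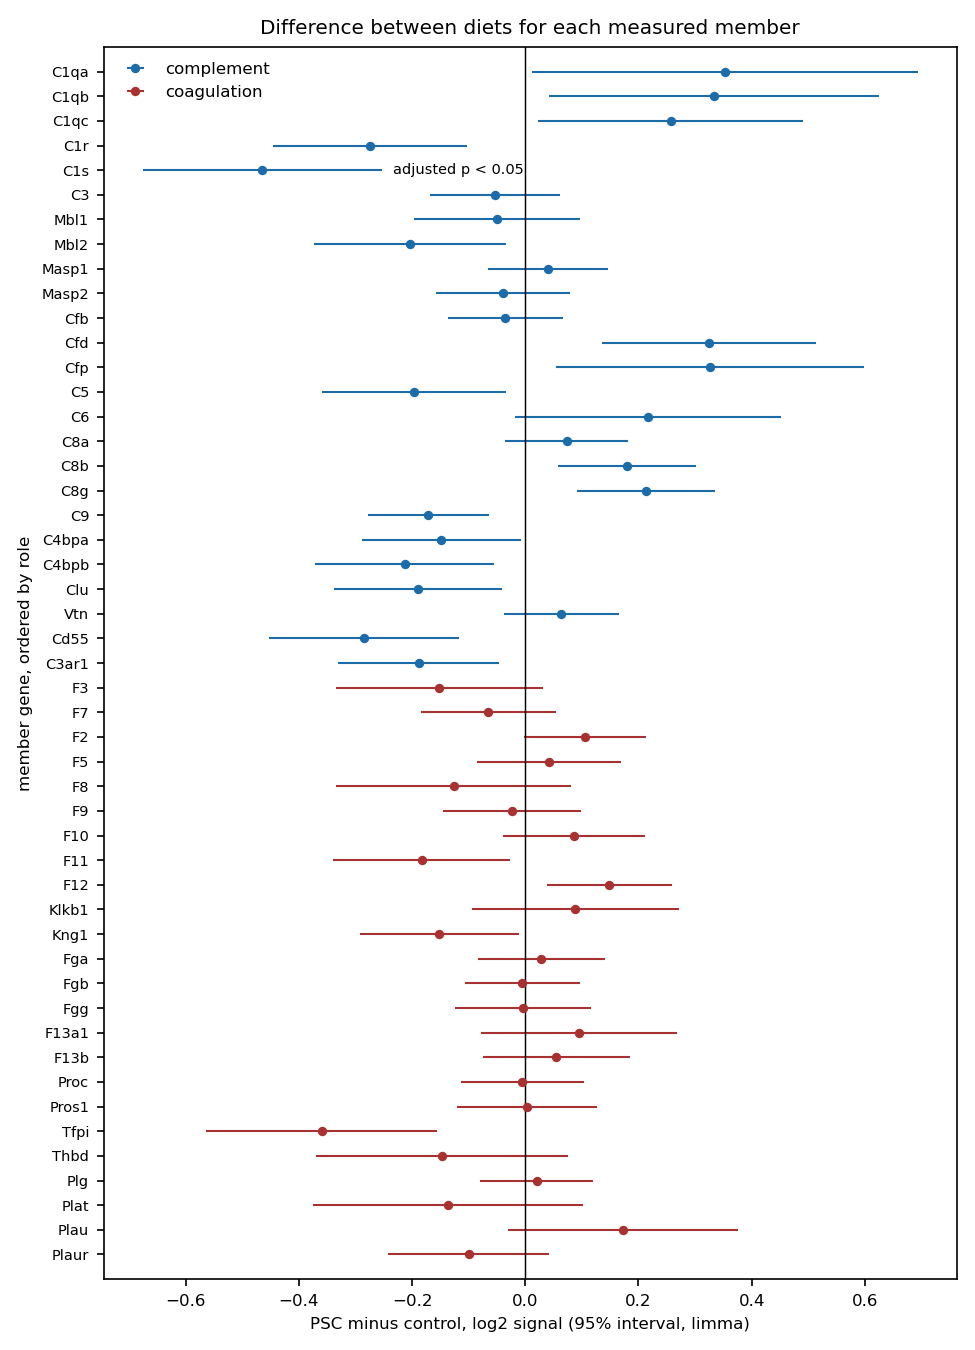
Each point is the PSC minus control difference in log2 signal of 1 of the 49 measured members, with its 95% interval from limma; genes run from the classical pathway at the top to fibrinolysis at the bottom, complement in blue and coagulation in red. C1s, at -0.47, is the single member past the adjusted threshold, the C1q subunits, Cfd and Cfp lie to the right, and the 3 fibrinogen genes lie at 0.

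Of the serine proteases of the classical pathway, C1s fell in PSC-fed rats and C1r had a lower mean that did not pass. C1s, which cuts C4 and C2, had log2 signals of 10.54, 10.23, 10.37, 10.53, 10.49 and 10.55 in control replicates 1 to 6 and of 9.81, 10.25, 10.02, 10.23, 9.95 and 9.66 in PSC replicates 1 to 6. The PSC arrays lay below every control on 4 of 6 arrays, and PSC replicates 2 and 4 reached the level of control replicate 2, the lowest control. The difference was -0.47 (SE 0.10, 95% interval -0.68 to -0.25, limma adjusted p = 0.027). With 1 array left out the difference was -0.52 to -0.40, and C1s no longer passed in 7 of 12 such fits: those lacking control replicates 1 (adjusted p = 0.0699), 4 (0.0621), 5 (0.0501) or 6 (0.0609), or PSC replicates 1 (0.0598), 5 (0.0591) or 6 (0.0542).

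C1r, which activates C1s within the C1 complex, is its direct neighbour among the protein-coding genes of RefSeq. Its log2 signal ran from 10.98 through a median of 11.075 to 11.14 in controls and from 10.48 through 10.83 to 10.97 in PSC rats. All 6 PSC arrays lay below every control, PSC replicates 2 and 4 (10.97) only just. The difference of -0.275 (SE 0.08) did not pass over all genes (limma adjusted p = 0.0797). It passed without PSC replicate 4 (-0.31, adjusted p = 0.0483), after median centring (-0.32, 0.0464) and with a trended prior (0.0467). Stellate cell markers were lower in the same rats: 12 of 14 had negative values, and their summed linear signal was 2328 to 2767 in controls and 1854 to 2488 in PSC rats. The dimmest of them had a lowest log2 signal of 2.27, a level that may hold much background. With 1 array left out, Dcn and Col1a2 passed in all 12 fits, Tagln in 11, Rgs5 in 3 and Col3a1 in 2. The part of these markers in the values of C1r and C1s was not tested.

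**Figure D2:**
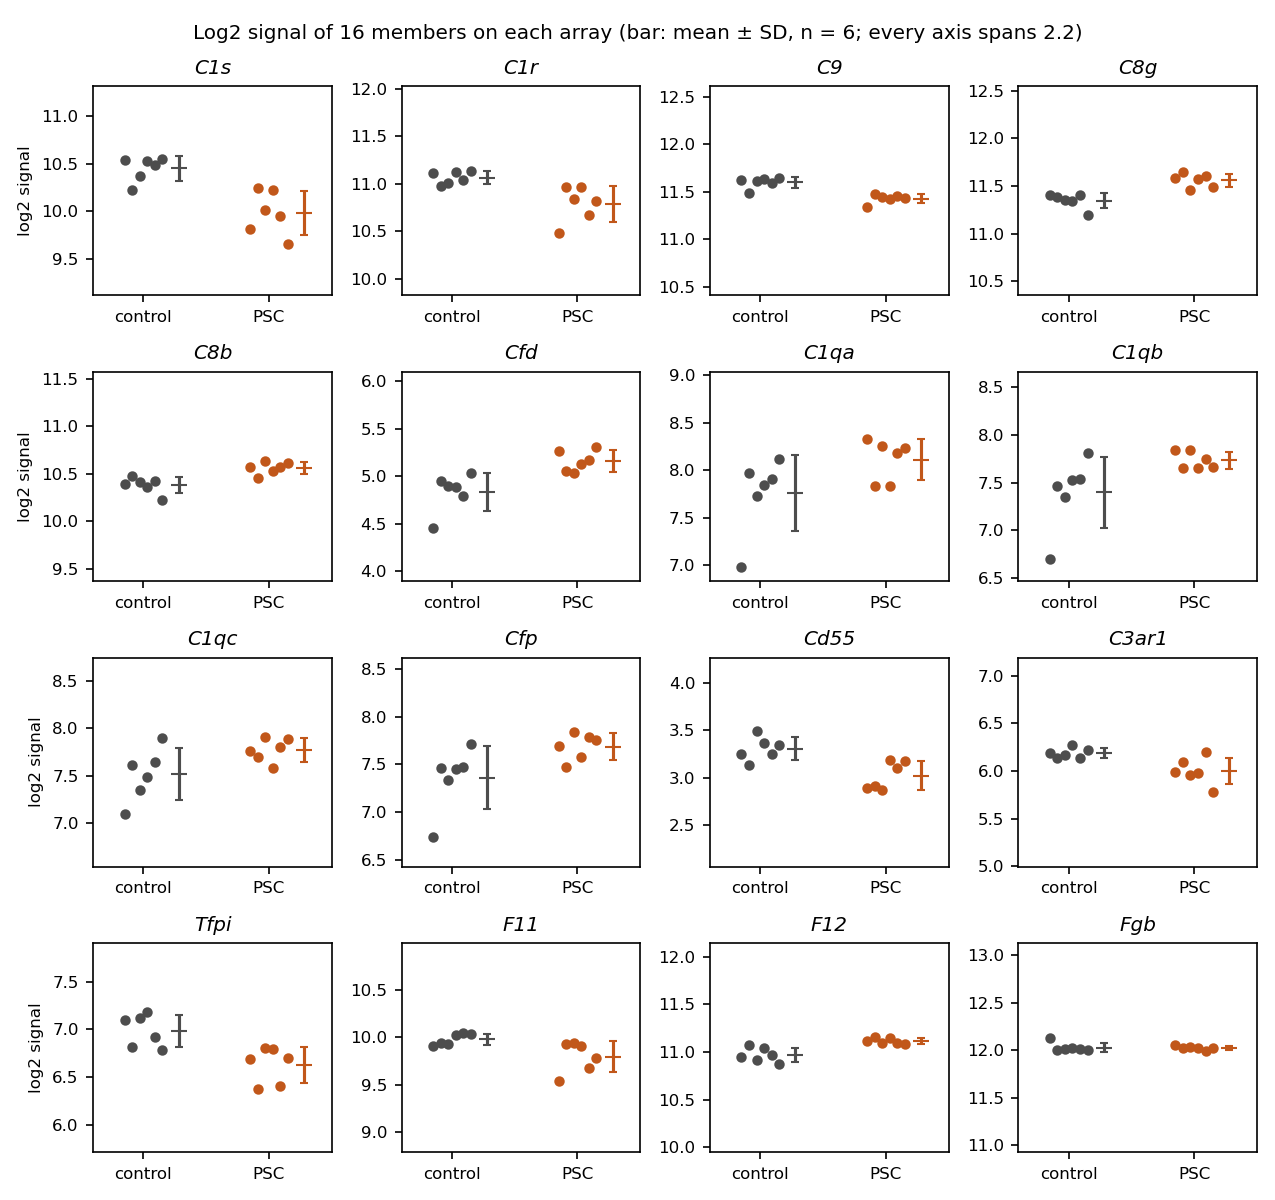
Each panel shows 1 of 16 members, with a point per array (log2 signal, 6 control and 6 PSC arrays) and the mean ± SD beside them; every vertical axis spans the same range of 2.2. C1r, C9, C8g and F12 show no overlap between the diets, C1s overlaps on PSC replicates 2 and 4, and control replicate 1 is the low point for C1qa, C1qb, C1qc, Cfp and Cfd.

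The C1q genes, which lie side by side and encode the 3 chains of the recognition protein C1q, had higher means in PSC-fed rats and none passed. C1qa ran from 6.98 through a median of 7.88 to 8.12 in controls and from 7.84 through 8.205 to 8.33 in PSC rats, a difference of 0.35 (95% interval 0.01 to 0.69, limma adjusted p = 0.246). C1qb went from 7.40 ± 0.37 to 7.73 ± 0.09 and C1qc from 7.52 ± 0.27 to 7.77 ± 0.12 (mean log2 signal ± SD, n = 6). Cfp, which encodes properdin, the stabiliser of the alternative C3 convertase, went from 7.36 ± 0.33 to 7.69 ± 0.14.

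All 4 genes shared the order of the control arrays at both ends. Control replicate 1 was the lowest of all 12 arrays for each, at 6.98 (C1qa), 6.70 (C1qb), 7.10 (C1qc) and 6.74 (Cfp), and control replicate 6 was the highest control, at 8.12, 7.81, 7.90 and 7.71. Without control replicate 1 the differences shrank from 0.35 to 0.20 for C1qa, from 0.33 to 0.19 for C1qb, from 0.26 to 0.17 for C1qc and from 0.33 to 0.20 for Cfp. Diets overlapped for all 4.

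Of 18 macrophage markers 13 had positive values and 5 negative, and 1 passed. Their summed linear signal was 2820 to 3221 in controls and 2910 to 3515 in PSC rats, above every control on 4 of 6 PSC arrays. The lowest log2 signal of any marker was 4.34. The haemoglobin scavenger receptor gene Cd163 rose, from 6.02 ± 0.55 to 6.89 ± 0.29 (limma adjusted p = 0.0436, up to 0.0884 with 1 array left out and below 0.05 in 4 of 12 such fits), and stood lowest in control replicate 1, at 4.96. That array was the lowest of all 12 for 9 of the 18 markers, among them the Kupffer cell genes Clec4f (6.10) and Cd5l (5.58), and the highest for Cd14 (8.90). Cd68 was at 7.57 there, beside a lowest control of 7.16. The negative values farthest from 0 were those of Lyz2 (-0.26, adjusted p = 0.38) and Lgmn (-0.23, adjusted p = 0.0591), the lysozyme and a lysosomal protease. The summed signal of control replicate 1, at 2820, was close to that of control replicates 2 and 3, at 2839 and 2832. Such a sum follows the brightest markers. On that array Lyz2 was at 9.02 and Cd14 at 8.90, where Cd163 was at 4.96, Cd5l at 5.58 and Clec4f at 6.10. The part of macrophage content in the C1q and properdin values was not tested.

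**Figure D3:**
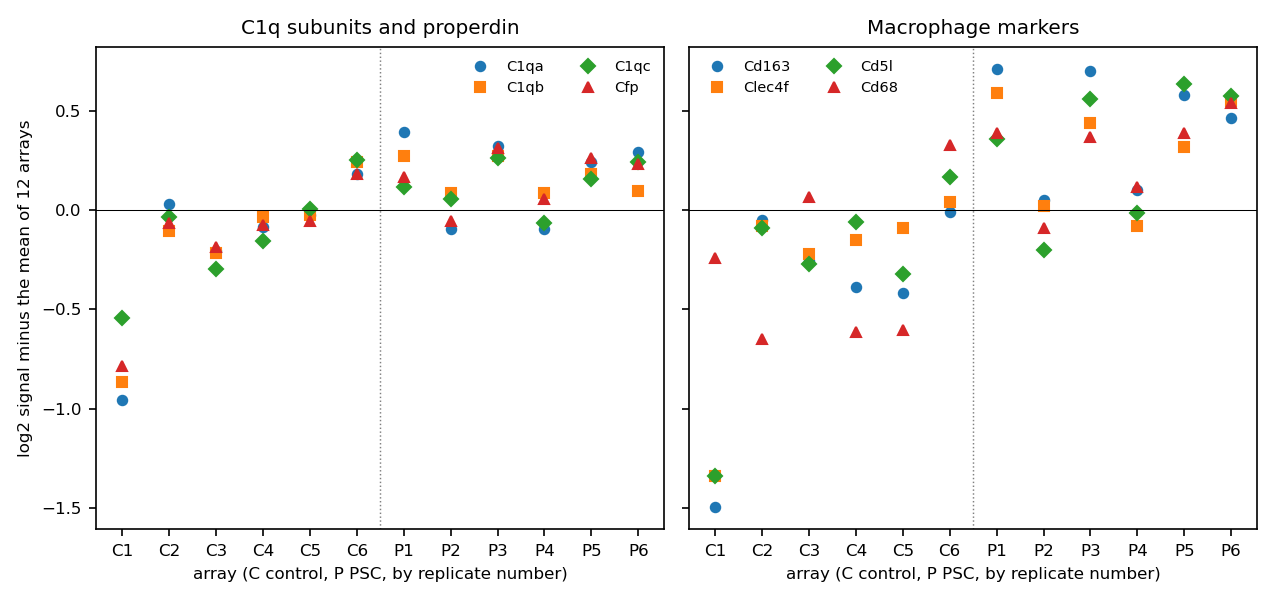
Points are log2 signals minus each gene's mean over the 12 arrays, by array (C1 to C6 control, P1 to P6 PSC, numbered by replicate). C1qa, C1qb, C1qc and Cfp are on the left, and the macrophage markers Cd163, Clec4f, Cd5l and Cd68 on the right. The markers drawn are those with the largest positive values of the 18 measured, picked after their values were seen. Of the 18, 13 had positive values and 5 negative. Control replicate 1 is lowest for every gene on the left and for Cd163, Clec4f and Cd5l on the right.

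C3, the protein on which all pathways converge, differed by -0.05 (95% interval -0.17 to 0.06) from 12.65 ± 0.05 in controls. In the lectin pathway none of 4 members passed. Mbl2, a mannose-binding lectin, ran from 9.44 through a median of 9.645 to 9.87 in controls and from 9.32 through 9.44 to 9.66 in PSC rats. Of the PSC arrays 3 lay below every control and 3 inside the control range (difference -0.20, limma adjusted p = 0.178). Mbl1, Masp1 and Masp2 differed by -0.05, 0.04 and -0.04, and their 95% intervals lay within -0.20 and 0.15.

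In the alternative pathway Cfd, the protease that activates factor B and is best known from fat cells, ran from 4.46 through 4.895 to 5.03 in controls and from 5.03 through 5.15 to 5.31 in PSC rats. Of the PSC arrays 5 lay above every control and the sixth, PSC replicate 3, equalled the highest control. The difference of 0.325 (SE 0.09) missed the threshold (limma adjusted p = 0.0644) and was 0.25 without control replicate 1. With dim genes left out Cfd passed (adjusted p = 0.0467), although its control signals lie around the array medians of 4.71 to 4.85. Cfb, which encodes factor B itself, was at 9.33 ± 0.04 and 9.30 ± 0.04, within an interval of -0.14 to 0.07 for the difference.

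Members of the terminal pathway, whose products build the membrane attack pore, differed in sign among themselves, and none of 6 passed. C8g, the light chain of C8, ran from 11.19 through a median of 11.365 to 11.41 in controls and from 11.46 through 11.575 to 11.65 in PSC rats. Every PSC array was above every control, by a narrow margin (difference 0.21, SE 0.06, limma adjusted p = 0.0594). C8b, which encodes the beta chain and lies beside C8a, went from 10.385 ± 0.09 to 10.565 ± 0.06, with 5 of 6 PSC arrays above every control. C8g passed with dim genes left out (adjusted p = 0.039) or a trended prior (0.0237), and C8b with a trended prior (0.0498). C8a (alpha chain) differed by 0.07 and C6 by 0.22, with intervals that held 0. Without control replicate 6, which was low at 9.01, the C6 difference was 0.11.

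C9, the subunit that polymerises into the pore, lay the other way. Its signals were 11.49 to 11.64 in controls (median 11.615) and 11.34 to 11.47 in PSC rats (median 11.435). All 6 PSC arrays were below every control, although the difference was 0.17 in size (95% interval -0.28 to -0.06, limma adjusted p = 0.0798). C9 passed after median centring (-0.22, adjusted p = 0.0438) and with a trended prior (0.0274). C5, the source of the inflammatory peptide C5a, went from 10.77 ± 0.16 to 10.58 ± 0.10 (adjusted p = 0.178).

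Of 5 measured regulators 4 had negative values and none passed. Cd55, which encodes decay-accelerating factor on cell surfaces, ran from 3.14 through 3.30 to 3.49 in controls and from 2.87 through 3.005 to 3.19 in PSC rats, with 4 of 6 PSC arrays below every control (difference -0.285, SE 0.08, limma adjusted p = 0.0656). These signals are below the array medians of 4.71 to 4.85, and with no detection calls in the files a level this low may hold much background. Cd55 passed after a further quantile normalization (-0.34, adjusted p = 0.0375), median centring (-0.33, 0.0323) or cyclic loess (-0.34, 0.037), and also without control replicate 2 (-0.32, 0.0482) or PSC replicate 4 (-0.32, 0.0401). C4bpa and C4bpb, chains of the C4b-binding protein, differed by -0.15 and -0.21 and Clu (clusterin) by -0.19, while Vtn (vitronectin) differed by 0.06.

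C3ar1, the receptor of the C3a peptide on myeloid cells, was the 1 measured receptor. It ran from 6.14 through 6.18 to 6.27 in controls and from 5.78 through 5.985 to 6.20 in PSC rats, with 5 of 6 PSC arrays below every control and PSC replicate 5 inside the control range. Its difference was -0.19 (SE 0.07, limma adjusted p = 0.142). Its sign was opposite to that of C1qa, C1qb, C1qc and Cfp.

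Among coagulation genes the largest difference was that of Tfpi, the inhibitor of the tissue factor and factor VIIa complex. It ran from 6.78 through a median of 7.01 to 7.18 in controls and from 6.37 through 6.695 to 6.80 in PSC rats. The PSC arrays lay below every control on 4 of 6, and PSC replicates 3 and 4, at 6.80 and 6.79, overlapped control replicate 6 at 6.78. The difference of -0.36 (95% interval -0.56 to -0.16) missed the threshold (limma adjusted p = 0.0593) and passed without PSC replicate 4 (-0.39, adjusted p = 0.0427), after median centring (-0.405, 0.0466), with dim genes left out (0.0439) and with a trended prior (0.0403). Endothelial markers had 6 positive and 6 negative values, with a lowest log2 signal of 5.54. Their summed linear signal was 2184 to 2475 in controls and 2345 to 2686 in PSC rats. Their part in the Tfpi value was not tested.

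The genes that start clotting through tissue factor did not pass. F3, tissue factor itself, ran from 4.44 through 4.64 to 4.69 in controls and from 4.15 through 4.445 to 4.66 in PSC rats. The diets overlapped, with 3 PSC arrays below every control (difference -0.15, limma adjusted p = 0.354). F7, the protease that tissue factor binds, differed by -0.065 (95% interval -0.18 to 0.05).

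None of the 6 factors of the intrinsic and common routes passed. F11, which activates factor IX, had the smallest p of the 6 and ran from 9.91 through 9.98 to 10.04 in controls and from 9.54 through 9.845 to 9.94 in PSC rats. PSC replicate 1 was the low point and 3 PSC arrays lay inside the control range (difference -0.18, limma adjusted p = 0.187). F2, which encodes prothrombin, went from 11.26 ± 0.06 to 11.37 ± 0.05 (adjusted p = 0.275). F5, F9 and F10 differed by 0.04, -0.02 and 0.09, and their 95% intervals reached from -0.15 to 0.21. F8, made by endothelium, differed by -0.13 with a wider interval, -0.33 to 0.08. Leaving out 1 array moved it between -0.195 (without control replicate 2) and -0.08 (without PSC replicate 6).

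The contact system, in which factor XII and plasma kallikrein activate each other on surfaces and release bradykinin from kininogen, held the 1 coagulation gene without overlap. F12 ran from 10.87 through 10.96 to 11.07 in controls and from 11.08 through 11.11 to 11.16 in PSC rats, 0.15 higher (SE 0.05, limma adjusted p = 0.138). All 6 PSC arrays lay above every control, with a smaller spread (SD 0.03 against 0.07). Klkb1 (plasma kallikrein) differed by 0.09 and Kng1 (kininogen) by -0.15, and the Kng1 probes may also bind transcripts of the close kininogen relatives of the rat. Neither passed.

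The fibrinogen genes, Fga, Fgb and Fgg, are neighbours, and their products assemble into one molecule. Fga was at 11.81 ± 0.08 and 11.84 ± 0.02, Fgb at 12.03 ± 0.05 and 12.02 ± 0.02 and Fgg at 12.12 ± 0.10 and 12.12 ± 0.03 (control and PSC, mean log2 signal ± SD, n = 6). The 95% intervals of the differences were -0.08 to 0.14, -0.11 to 0.10 and -0.12 to 0.12, Control replicate 1 was the highest of all 12 arrays for each chain, at 11.97, 12.13 and 12.32, the array that was lowest for C1q and properdin. Without it the differences were 0.06 for Fga, 0.015 for Fgb and 0.04 for Fgg, so that those of Fgb and Fgg turned positive. F13a1 and F13b, the chains of the factor that cross-links fibrin, differed by 0.095 and 0.055. F13a1 ran from 3.60 through 3.875 to 4.12 in controls and from 3.80 through 3.97 to 4.10 in PSC rats, so that its PSC arrays lay wholly inside the control range.

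**Figure D4:**
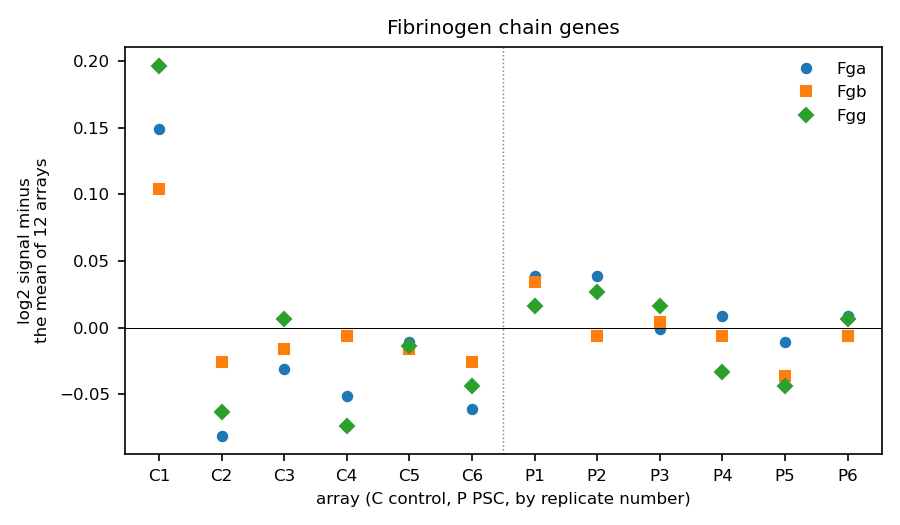
Points are log2 signals of Fga, Fgb and Fgg minus each gene's mean over the 12 arrays, by array (C1 to C6 control, P1 to P6 PSC, numbered by replicate). Control replicate 1 is highest for each chain.

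Of the other anticoagulant genes, Proc (protein C) and its cofactor Pros1 (protein S) differed by -0.005 and 0.0033, with intervals of -0.11 to 0.10 and -0.12 to 0.13. Thbd, the endothelial thrombomodulin, was at 4.24 ± 0.27 and 4.10 ± 0.09, and control replicate 6 stood apart at 4.78. The Thbd difference was -0.15 with that array and -0.04 without it. In fibrinolysis none of 4 passed. Plau, the urokinase activator of plasminogen, ran from 4.99 through 5.34 to 5.45 in controls and from 5.25 through 5.465 to 5.70 in PSC rats, with PSC replicates 2, 3 and 4 above every control (difference 0.17, limma adjusted p = 0.339). Plg (plasminogen) differed by 0.02 (95% interval -0.08 to 0.12), Plat (tissue plasminogen activator) by -0.14 and Plaur (urokinase receptor) by -0.10.

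Set against each other, complement members had larger differences between the diets than coagulation members, while the signs were mixed in both. This contrast is a description without a test. The median absolute difference was 0.20 for complement, 0.09 for coagulation and 0.09 for all genes, and 12 of 25 complement genes, 1 of 24 coagulation genes and 15.8% of all genes differed by over 0.2. Single arrays moved genes across 0.2. Without control replicate 1, C1qa, C1qb and C1qc differed by 0.197, 0.194 and 0.173. Without control replicate 6, C8g differed by 0.18 and C6 by 0.11. Without control replicate 2, C5 and Clu went the other way, from -0.197 and -0.19 to -0.24 and -0.22. The count and the median sizes were not recomputed with arrays left out. With sign, the medians were -0.04 for complement, -0.0042 for coagulation and 0.01 for all genes. In complement 11 values were positive and 14 negative, and in coagulation 11 and 13. By main source, the 18 complement genes of hepatocytes had a median of -0.05 and the 7 of other cells 0.325 (Cd55 and C3ar1 were the negative ones). The 16 coagulation genes of hepatocytes had a median of 0.01, with all 16 below 0.2 in size, and the 8 of other cells -0.13. Members varied less among rats of a diet than most genes: 34 of 49 had an SD below the all-gene median of 0.142. So did 11 of 13 hepatocyte markers. Among members this held for those of hepatocytes, 16 of 18 in complement and 15 of 16 in coagulation. Of those from other cells 2 of 7 and 1 of 8 lay below that median. Genes were not matched for signal level here. The control means of hepatocyte members were 7.88 (F7) or above, and those of members from other cells 7.76 (C1qa) or below. The part of signal level in these spreads was not tested.

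**Figure D5:**
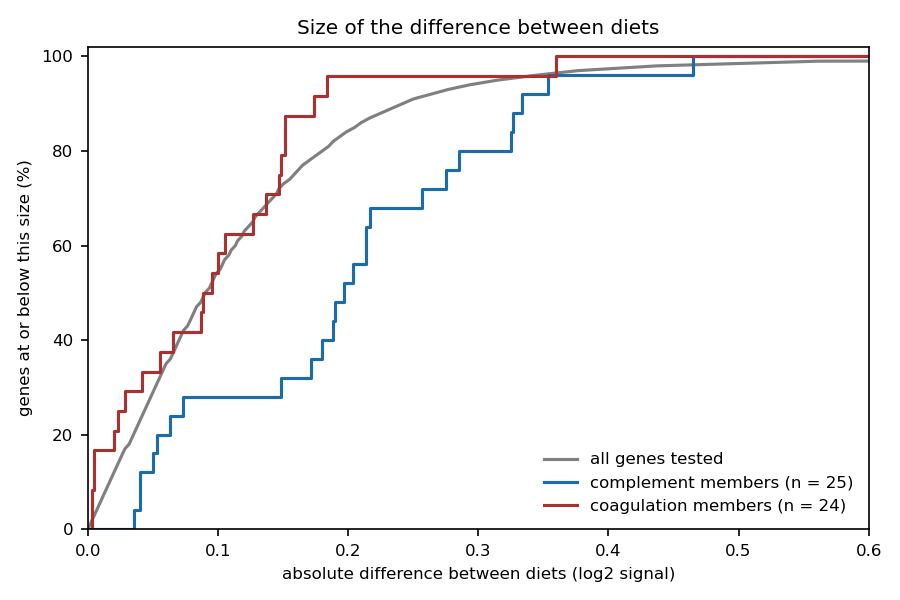
Curves give the percentage of genes whose absolute difference between the diets (log2 signal) is at or below the value on the horizontal axis, for all genes tested (grey), 25 complement members (blue) and 24 coagulation members (red). The coagulation curve lies above that of all genes at the smallest differences and runs close to it near its median of 0.09. The complement curve lies to the right of both over most of its range, with a median of 0.20.

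Of the pathways' genes outside the 53, 1 of 24 measured further complement genes and 1 of 29 further haemostasis genes passed, both lower. Cd46, a membrane cofactor for the breakdown of C3b, fell from 6.25 ± 0.14 to 5.50 ± 0.26 (limma adjusted p = 0.0041), with all PSC arrays below all controls. S100a10, whose product helps dock plasminogen on cell surfaces, fell from 5.84 ± 0.28 to 5.38 ± 0.14 (adjusted p = 0.0454), and passed in 1 of 12 fits with 1 array left out, where Cd46 passed in all 12. Of the further complement genes 14 had positive values and 10 negative, and of the further haemostasis genes 16 and 13. The largest differences in size did not pass. These were Vsig4 (0.93, limma adjusted p = 0.0606), lowest in control replicate 1 at 5.66, and Anxa2 (-0.57, adjusted p = 0.0584). The protease inhibitors Serping1, which blocks C1r and C1s, and Serpinc1 (antithrombin) differed by 0.01 and 0.04. Of 15 transcription factors of liver, Cebpa (0.30, adjusted p = 0.0412) and Onecut2 (0.25, 0.0365) rose and none fell. With 1 array left out, Cebpa passed in 1 and Onecut2 in 2 of 12 fits.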

How the data were processed

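The authors deposited log2 signals per transcript cluster, made in Affymetrix Expression Console with RMA (source: the submitters' processing notes). As a rule RMA subtracts background, quantile normalizes and summarises probes by median polish. Differences of dim genes tend to be compressed in such values. Versions are not stated in the labels, and the files hold no detection calls. Values were used as deposited.

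Rows with 1 symbol in the platform annotation were tested, per gene the row with the highest mean. All 49 measured members matched RefSeq (GRCr8) by gene number. Diets were compared over all 18166 genes by a two-sided limma test (version 3.58.1, R 4.3.3), with no covariates and p-values adjusted by Benjamini-Hochberg to a threshold of 0.05. The fit was tested on simulated data. Nothing in the labels says which samples share a cage.

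Members and lists were chosen with earlier results of these data known. Full ranges are given for members that passed and for the one with the smallest p in each role. C1r, the C1q genes, Cfp, C8b, C9 and the fibrinogen genes were described after their values were seen. So were Clec4f, Cd5l, Cd68, Cd14, Lyz2, Lgmn, Serping1, Serpinc1, Vsig4 and Anxa2. Of the list genes only Alb and those that passed were otherwise named. Alternatives were 3 normalizations, a filter on dim genes, trended and robust priors, weighted arrays, a block for replicate number, averaging the rows of each gene, all transcript clusters, a threshold of 0.1 and leaving out each array. Figures were drawn with matplotlib 3.10.9.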

Additional observations from a re-analysis of the deposited data

Results flagged for a closer look

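Of 98 sets of 6 arrays (49 members, 2 diets), 9 held an array farther from the rest than Dixon's 95% critical value allows. Chance gives about 1 in 20 where sets are independent. These sets share arrays and are not independent, and control replicate 1 held 4 of the 9 and control replicate 6 held 3. All 9 were control arrays. Control replicate 1 stood apart for C1qa, at 6.98 where the next control was 7.73, and on the high side for Fga (11.97, next 11.81), Fgb (12.13, next 12.02) and Fgg (12.32, next 12.13). Control replicate 6 was low for C6 (9.01, next 9.55) and C8g (11.19, next 11.34) and high for Thbd (4.78, next 4.22). Control replicate 2 was low for C9 (11.49, next 11.59) and F8 (4.75, next 5.09). Without control replicate 1 the difference went from 0.35 to 0.20 for C1qa, from 0.03 to 0.06 for Fga, from -0.005 to 0.015 for Fgb and from -0.0033 to 0.04 for Fgg. Without control replicate 6 it went from 0.22 to 0.11 for C6, from 0.21 to 0.18 for C8g and from -0.15 to -0.04 for Thbd. Without control replicate 2 it went from -0.17 to -0.19 for C9 and from -0.13 to -0.195 for F8.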

How the results depend on the processing

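No member that passed in any fit changed direction. Of 1125 values of members under alternatives, 27, from 9 members, changed sign without passing, none larger than 0.042 in size. The complement count of 1 became 2 after a further quantile normalization or cyclic loess, 4 after median centring, 3 with dim genes left out, 5 with a trended prior, 6 at a threshold of 0.1 and 0 with the replicate block. The count over all genes, 473, moved as well. It was 417 after the further quantile normalization, 426 after cyclic loess and 666 after median centring. With dim genes left out it was 664, among fewer genes tested, and with a trended prior 685. The coagulation count of 0 became 1 after median centring, with dim genes left out, with a trended prior and at a threshold of 0.1, where Tfpi was the gene. At an unadjusted p below 0.05, limma counted 4. The coagulation median moved from -0.0042 to -0.049 after median centring, which lowers every value alike. Leaving out 1 array gave 0 to 3 complement and 0 to 1 coagulation genes, medians of -0.07 to -0.03 and -0.01 to 0.02, a difference of medians of -0.06 to -0.02, and 142 (without control replicate 1) to 735 (without PSC replicate 4) genes in all. Over all genes 254 passed among all transcript clusters, 1140 at 0.1 and 94 with the replicate block. Whether replicate numbers pair the rats or the order of processing is unknown here. Same-numbered arrays deviated together at -0.15 to 0.11, over 0.1 for 1 of 6 numbers, which is too few to settle it. With that block C1s had a limma adjusted p of 0.0859. The other 101 of 135 values of the comparisons stayed within the spread of replicates or 1.5 times the count. Fits with 1 array fewer also have fewer samples. The number of arrays, and dim signals such as those of Cd55, F13a1, Thbd and F3, limit what can be seen.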
